A study of Mus musculus with 3 samples.

Results

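The genes of the proteasome, of its activators and of its assembly factors were followed in RNA sequencing libraries of male mouse hindlimb muscle (gastrocnemius with plantaris). Members were the genes named Psma, Psmb, Psmc, Psmd, Psme, Psmf or Psmg followed by digits alone, with a mean of at least 1 deposited CPM (counts per 1000000 counts) over the 3 libraries. The immunoproteasome subunits Psmb8, Psmb9 and Psmb10 were kept apart. In all, 45 symbols had such a name and 43 reached that level, of 12966 genes in the whole series that did so. The symbols below it were Psma8, a testis-specific form of an alpha subunit, with 0, 6 and 0 counts in the aged EPA, aged control and young libraries, and Psmb11, a thymus-specific beta subunit, with 3, 0 and 0 counts. The rule used names and mean levels, and no difference between libraries.

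The aged EPA library came from mice of 87 weeks that had been given, for 12 weeks from week 75, a diet containing EPA, the omega-3 fatty acid eicosapentaenoic acid, at 1 wt%. The aged control library came from mice of the same ages that received the EPA-deprived diet. The young library came from mice of 24 weeks whose diet is not given. The labels spell the strain C57BL/6J for both aged groups and C57BL/7J for the young group, and name no transgene and no other agent. RNA of 6 aged EPA, 6 aged control and 3 young mice was combined within each group into 1 library, so that the difference between aged and young is also one of strain label and possibly of diet, and these cannot be told apart. With 1 library per group no difference between groups can be tested, and sizes are given with counting error only.

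The proteasome degrades proteins that carry ubiquitin chains, and in skeletal muscle it removes damaged proteins and, during wasting, much of the contractile apparatus. Its 20S core is a barrel of outer alpha rings, which gate the entrance, and inner beta rings, of which the subunits encoded by Psmb5, Psmb6 and Psmb7 cut peptide bonds. The 19S cap holds a base, whose ring of ATPases (Psmc genes) unfolds the substrate, and a lid, which removes ubiquitin. Chaperones named Psmg build the core and Psmd5, Psmd9 and Psmd10 help to build the base. Activators named Psme can take the place of the 19S cap. Transcription of these genes is known to be raised together by NRF1, the product of Nfe2l1, through antioxidant response elements in their promoters.

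Promoter windows are shown for Psma3 and Psmd4, the members with the largest log2 change of CPM + 1 between the aged libraries, and for Psmb5 and Psmb6, the catalytic subunits whose windows hold the core of the antioxidant response element. Each window runs 5′ to 3′ on the strand of the gene, from 250 bases before to 50 bases after the annotated start, from RefSeq on GRCm38.p6. Capitals mark matches, on either strand, to TGACNNNGC (that core), CCAAT (the CCAAT box) and CCGGAA (the core bound by ETS factors). The windows lie at chr12:70974373-70974672 on the plus strand (Psma3), chr3:95042565-95042864 on the minus strand (Psmd4), chr14:54617946-54618245 on the minus strand (Psmb5) and chr11:70525107-70525406 on the plus strand (Psmb6).
Psma3: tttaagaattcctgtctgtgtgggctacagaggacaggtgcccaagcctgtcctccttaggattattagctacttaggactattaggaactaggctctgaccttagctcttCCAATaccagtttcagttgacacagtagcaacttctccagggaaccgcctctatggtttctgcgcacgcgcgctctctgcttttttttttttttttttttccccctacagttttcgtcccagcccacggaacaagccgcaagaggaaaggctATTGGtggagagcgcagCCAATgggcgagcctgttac
Psmd4: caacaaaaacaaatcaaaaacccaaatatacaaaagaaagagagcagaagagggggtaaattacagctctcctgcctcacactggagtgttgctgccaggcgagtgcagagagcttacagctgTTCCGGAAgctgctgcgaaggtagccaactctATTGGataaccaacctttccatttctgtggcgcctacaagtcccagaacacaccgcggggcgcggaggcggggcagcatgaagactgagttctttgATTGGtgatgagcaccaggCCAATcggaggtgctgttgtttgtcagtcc
Psmb5: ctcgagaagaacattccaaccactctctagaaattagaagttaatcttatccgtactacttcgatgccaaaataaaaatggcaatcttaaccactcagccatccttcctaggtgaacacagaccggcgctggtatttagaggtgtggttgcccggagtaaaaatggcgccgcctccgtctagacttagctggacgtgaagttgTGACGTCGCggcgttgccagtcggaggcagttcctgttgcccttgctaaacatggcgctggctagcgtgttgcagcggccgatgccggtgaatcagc
Psmb6: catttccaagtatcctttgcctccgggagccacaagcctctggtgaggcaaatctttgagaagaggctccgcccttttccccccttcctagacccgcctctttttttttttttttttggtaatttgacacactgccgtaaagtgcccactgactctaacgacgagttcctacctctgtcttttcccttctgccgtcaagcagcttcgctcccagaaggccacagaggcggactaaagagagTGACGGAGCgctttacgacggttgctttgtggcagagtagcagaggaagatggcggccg

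The capitals of Psma3 are 3 CCAAT matches. Psmd4 also has 3 CCAAT matches, and its other capitals are a pair of overlapping CCGGAA matches on opposite strands. Psmb5 and Psmb6 each have 1 TGACNNNGC match. A window was given for 36 of the 43 members. TGACNNNGC stood in 6 of the 36 (16.7%), namely Psmb5, Psmb6, Psmc6, Psmd12, Psmd9 and Psme4, beside 17.1% of the 9692 compared genes with a window and 12.4% of all 32851 windows. CCAAT stood in 12 of the 36 (33.3%), beside 42.6% and 37.4%. CCGGAA stood in 20 of the 36 (55.6%), beside 31.0% and 14.9%. These are letter matches and were not tested as binding sites.

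Depth was 55969822 counts for aged EPA, 57622886 for aged control and 57386394 for young, and the members took 0.333%, 0.319% and 0.340% of them. Acta1, the skeletal actin, stood at 35961, 35151 and 31035 CPM in aged EPA, aged control and young, so the defining gene of the labelled tissue was abundant in each. Transcripts of the mitochondrial genome made up 19.6%, 21.2% and 22.7% of counts. Markers of other cells and fibres differed between libraries to unequal degrees. All 3 slow fibre markers were highest in aged control (summed 211 CPM in aged EPA, 285 in aged control and 120.4 in young). The 3 red cell markers summed to 351, 328 and 876 CPM, the 3 endothelial markers to 187, 190.4 and 251 CPM, and the 3 adipocyte markers to 115, 81.5 and 136 CPM in aged EPA, aged control and young. The B and plasma cell markers Igkc, Jchain and Cd79a summed to 10.7, 9.48 and 1.46 CPM in those libraries, mostly from Igkc, while Cd79a ran the other way at 0.14, 0.33 and 0.54 CPM. The 4 macrophage markers summed to 99.1, 95.6 and 88.0 CPM. The 3 T and NK cell markers summed to 0.38 CPM in aged EPA, 0.35 in aged control and 0.19 in young, with Nkg7 at 0 in aged control and young and Cd3e at 0 in young. The part of these cells in the values below was not tested. In whole muscle, fewer cells of a type and less RNA per cell cannot be told apart.

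Levels between members were compared as CPM per kilobase of the principal transcript. Across the 43 members they ran from 2.099 to 189 in aged EPA, 2.69 to 175 in aged control and 2.38 to 198 in young, with Psmd10 lowest and Psmd8, a lid subunit, highest in each. Median levels of the core and cap subunits lay in one broad band. Beta ring genes had a median of 83.4, 75.4 and 78.9 CPM per kilobase in aged EPA, aged control and young, and alpha ring genes one of 46.4, 45.7 and 50.8. Base ATPases had 66.4, 61.5 and 63.3, and lid subunits 54.8, 54.4 and 56.1. The assembly chaperones among the members had far lower medians, at 5.58, 5.55 and 6.84.

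Within the core, Psmb6, Psmb7 and Psmb3 had the highest levels in the young library, at 128, 106 and 96.1 CPM per kilobase. Psmb4 and Psmb5 followed at 78.9 and 78.7, Psmb1 at 65.6 and Psmb2 at 59.2. Among alpha genes, Psma6 led with 90.0, Psma7 had 58.2, Psma4 55.9, Psma1 50.8 and Psma5 30.6 CPM per kilobase in young, with Psma3 at 19.3 and Psma2 at 18.5. The assembled core holds its different alpha subunits in equal numbers, while these RNA levels spread widely. Psma3 and Psma2 also have long annotated principal transcripts, and the length in use in this muscle is not given by the files.

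In the cap, the ATPase genes Psmc3, Psmc2, Psmc1, Psmc5, Psmc4 and Psmc6 had 75.97, 68.9, 65.1, 61.4, 45.7 and 29.99 CPM per kilobase in young. The ubiquitin receptor gene Psmd4 had 77.5 there, and the large scaffold genes Psmd2 and Psmd1 had 55.0 and 49.0. Below Psmd8, the lid genes ran Psmd7 at 83.5, Psmd6 at 62.5, Psmd3 at 60.4, Psmd12 at 51.8, Psmd11 at 36.3, Psmd14, which encodes the lid deubiquitinase, at 27.0 and Psmd13 at 20.9. Chaperones ranged in young from 13.9 for Psmg2 through 7.48 for Psmg1, 7.19 for Psmg4, 6.84 for Psmd9, 5.21 for Psmg3 and 3.90 for Psmd5 to 2.38 for Psmd10. Of the activators, Psme4, which encodes PA200, had 38.2, Psme3 24.5, Psme1 16.2 and Psme2 10.6 CPM per kilobase. Psmf1, which encodes an inhibitor of the core, had 4.03.

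**Figure D1:**
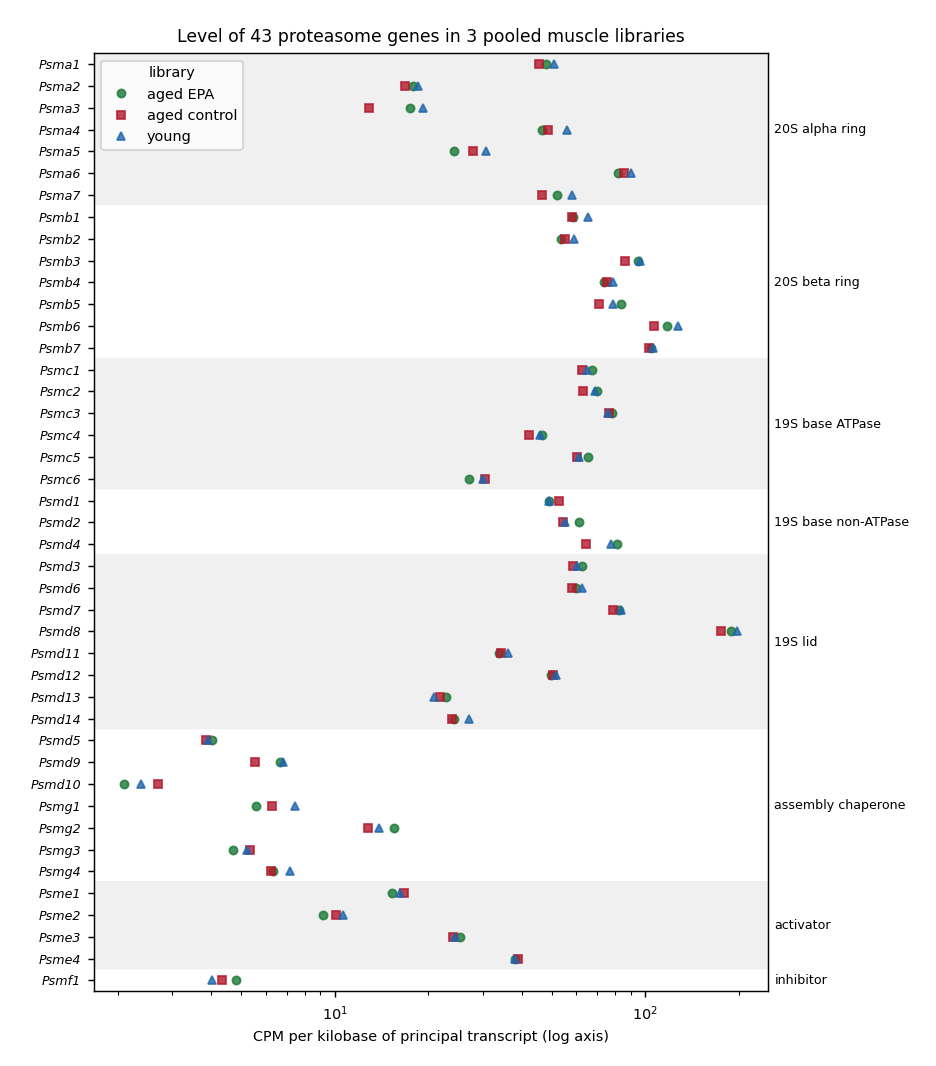
Level of each of the 43 members in CPM per kilobase of principal transcript (log axis) in the aged EPA (green circles), aged control (red squares) and young (blue triangles) libraries, grouped by role. The 3 symbols of a member lie close together beside the spread between members, from Psmd10 at 2.099 to 2.69 up to Psmd8 at 175 to 198.

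The members differed little between the 3 libraries. The highest library stood over the lowest by a median factor of 1.11 across members, beside 1.20 across all genes compared, and in 5 of 43 members (11.6%) the highest library was at least 25% above the lowest, beside 38.6% of all genes. Those 5 were Psma3, Psma5, Psmd4, Psmd10 and Psmg1. Low genes carry more counting error, and where the mean reached 10 CPM the median factors were 1.10 for 38 members and 1.15 for 7563 genes, of which 7.89% and 23.8% reached a 25% difference. Psma3 had the widest range of all members, with a factor of 1.502, and Psme4 the narrowest at 1.02, with 247 CPM in aged EPA, 253 in aged control and 248 in young.

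How proteasome RNA stands in old muscle is asked by setting the aged control library against young. Most members were slightly lower in the aged control library: 34 of 43 were lower, beside 53.5% of all genes compared, and 9 were higher, beside 46.4%. The median log2 change (of CPM + 1) was -0.09 for the members and -0.02 for all genes. All 7 alpha ring and all 7 beta ring genes were lower, also under every other scaling run and with the GC trend subtracted, but 6 and 3 of them with the trend of change with transcript length subtracted (given below). No member was 1.5-fold lower (2.64% of all genes) or higher (2.6%), and hence none 2-fold lower (0.848%) or higher (0.864%). Counting differences of at least 25%, the larger value over the smaller on the CPM + 1 scale, 1 member was lower, Psma3 (10.5% of all genes), and 0 were higher (8.78%). The 95% counting interval of the count ratio lay below 0 for 24 members (29.7% of all genes) and above 0 for 1, Psmd1 (25.5% of all genes). Intervals narrow as counts rise, and the median deposited CPM was 66.1 for members and 13.6 for all genes. The shares of intervals apart from 0 were not matched for this level, so they are not like for like.

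Alpha ring genes together held 363 CPM in aged control and 419.8 CPM in young, a log2 ratio of -0.21 (95% counting interval -0.23 to -0.18). Psma3, which encodes an alpha ring subunit (ENSMUSG00000060073, chromosome 12, 70974621 to 70996347 on GRCm38), had 36.6 CPM in aged control and 55.0 CPM in young, from 2108 and 3154 counts. Its log2 count ratio was -0.59 (95% counting interval -0.67 to -0.51), the largest of any member in this comparison, and it passed 1.5-fold with the deposited CPM, with 0.1 in place of 1 added, and without mitochondrial and the 20 most abundant genes in the total. Psma7, another alpha subunit gene, had 42.6 CPM in aged control and 53.2 CPM in young (log2 ratio -0.32, interval -0.40 to -0.24). The other 5 alpha genes had log2 ratios between -0.20 (Psma4) and -0.07 (Psma6), so the whole ring was lower and Psma3 stood apart in size.

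Beta ring genes together held 573 CPM in aged control and 629 CPM in young (median log2 change -0.15). The catalytic subunits were unequal in this. Psmb6, which cuts after acidic residues, had 85.1 CPM in aged control and 102 CPM in young (log2 ratio -0.26, interval -0.32 to -0.21). Psmb5, which cuts after hydrophobic residues and is the main target of proteasome inhibitor drugs, had 63.9 CPM in aged control and 70.8 CPM in young (log2 ratio -0.15, interval -0.21 to -0.08). Psmb7, which cuts after basic residues, had 119 CPM in aged control and 123 CPM in young (log2 ratio -0.05, interval -0.10 to 0.00), and its change was 0.06 with the length trend subtracted. The structural subunits Psmb1, Psmb3, Psmb2 and Psmb4 had log2 ratios of -0.18, -0.16, -0.10 and -0.07.

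The 19S base differed less before the length trend was subtracted. Its 6 ATPase genes held 546 CPM in aged control and 565 CPM in young (median log2 change -0.04). Of these, 4 were lower (2 with the length trend subtracted), and Psmc3 and Psmc6 were at 0.01 and 0.03. With the length trend subtracted, the median was 0.04 for the ATPase genes, 0.01 for the beta ring and -0.09 for the alpha ring. Psmd4, which encodes a ubiquitin receptor (ENSMUSG00000005625, chromosome 3, 95032694 to 95042614), was the exception in the base with 85.9 CPM in aged control and 103 CPM in young (log2 ratio -0.26, interval -0.32 to -0.21). Psmd1, a scaffold subunit that docks another ubiquitin receptor, had 164 CPM in aged control and 152 CPM in young (log2 ratio 0.10, interval 0.06 to 0.15). Psmd1 shares exonic bases with 2 other annotated genes, 1 of them on its own strand, so part of its count may belong to those.

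Lid genes held 875 CPM in aged control and 938 CPM in young (median log2 change -0.08), and 7 of 8 were lower. Psmd8 and Psmd14 had the lowest log2 ratios of the lid, both at -0.18. Psmd13 alone was higher there, with 43.5 CPM in aged control and 41.6 CPM in young, with an interval of -0.02 to 0.14 that includes 0. Of the assembly chaperones 5 of 7 were lower (3 with the length trend subtracted). Psmd9, a chaperone of the base, had 14.4 CPM in aged control and 17.8 CPM in young (log2 ratio -0.30, interval -0.43 to -0.17), but it shares 1849 exonic bases with Gm26745 on the opposite strand, and whether counting used strand is not given in the sources used here. Psmd10 had 3.85 CPM in aged control and 3.398 CPM in young (log2 ratio 0.18, interval -0.10 to 0.47), a difference within counting error. The activators lay near 0. Psme1 had a log2 ratio of 0.04, Psme4 0.03, Psme3 -0.02 and Psme2 -0.07. Psmf1 had 16.6 CPM in aged control and 15.3 CPM in young (log2 ratio 0.11, interval -0.02 to 0.25).

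**Figure D2:**
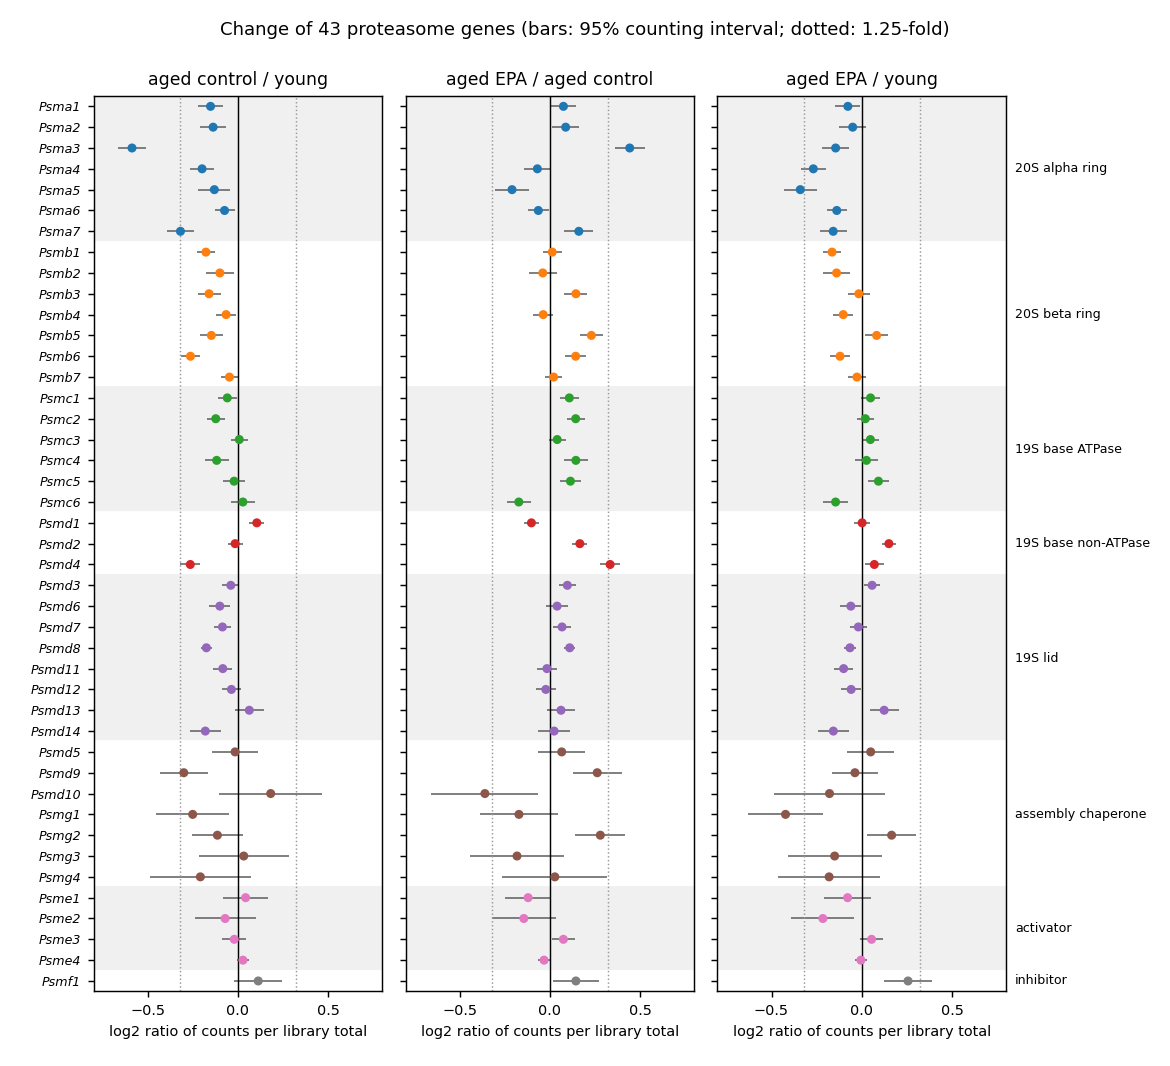
Log2 ratio of counts per library total for each member, aged control over young (left), aged EPA over aged control (middle) and aged EPA over young (right), with bars for the 95% counting interval and dotted lines at a 25% difference. Psma3 lies farthest left in the first panel at -0.59 and farthest right in the second at 0.44, and the wide bars belong to low genes such as Psmd10. Calls at 25% in the text use CPM + 1, so Psmd10 in the second panel passes the line without being counted.

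What accompanies EPA in the diet of old mice is asked by setting aged EPA against aged control. Here 28 of 43 members were higher in aged EPA (53.0% of all genes) and 15 were lower (47.0%), with a median log2 change of 0.06 beside 0.01 for all genes. With the deposited CPM 19 members were lower, and with the length trend subtracted 20, so this balance is slight. None was 1.5-fold apart (1.83% of all genes higher, 1.7% lower) or 2-fold apart (0.74% higher, 0.594% lower). By at least 25%, 2 members were higher, Psma3 and Psmd4 (6.74% of all genes), and 0 were lower (5.84%). Counting intervals lay above 0 for 20 members (25.4% of all genes) and below 0 for 5 (20.9%), namely Psma5, Psma6, Psmc6, Psmd1 and Psmd10. These shares too were not matched for the higher level of the members. The aged control library enters this comparison and the one before on opposite sides, so a value peculiar to that library appears in both with opposite sign.

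Of the alpha ring genes 4 of 7 were higher, and of the beta ring genes 5 of 7. Beta ring genes were higher in 4 of 7 cases with the deposited CPM. With the length trend subtracted, or without mitochondrial and the 20 most abundant genes in the total, 3 of 7 were higher. Psma3 had 49.7 CPM in aged EPA and 36.6 CPM in aged control (log2 ratio 0.44, interval 0.36 to 0.52). Psmd4 had 108 CPM in aged EPA and 85.9 CPM in aged control (log2 ratio 0.33, interval 0.28 to 0.39). For both genes the aged control library was the low one of the 3. Psmb5 had 74.9 CPM in aged EPA and 63.9 CPM in aged control (log2 ratio 0.23, interval 0.17 to 0.29), and Psmb6 had 93.98 and 85.1 CPM in the same libraries (log2 ratio 0.14, interval 0.09 to 0.20). Psmb7 had 121 CPM in aged EPA and 119 CPM in aged control (log2 ratio 0.02, interval -0.03 to 0.07), a difference within counting error.

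The ATPase genes of the base were higher in 5 of 6 cases (4 of 6 with the deposited CPM or with a length or GC trend subtracted), with log2 ratios of 0.04 (Psmc3) to 0.14 (Psmc2 and Psmc4). Psmc6 went the other way, at 60.6 CPM in aged EPA and 68.3 CPM in aged control (log2 ratio -0.17, interval -0.24 to -0.11). Psmd2, the scaffold that receives ubiquitin shuttle proteins, had 181 CPM in aged EPA and 161 CPM in aged control (log2 ratio 0.17, interval 0.13 to 0.21), while Psmd1 had 153 and 164 CPM in those libraries. The lid was higher in 6 of 8 genes (4 of 8 with the length trend subtracted), with the largest log2 ratio at 0.11 for Psmd8.

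Psma5 was the alpha subunit with the lowest ratio, at 29.98 CPM in aged EPA and 34.7 CPM in aged control (log2 ratio -0.21, interval -0.30 to -0.12). Chaperones differed both ways. Psmg2, a chaperone of alpha ring assembly, had 16.5 CPM in aged EPA and 13.6 CPM in aged control (log2 ratio 0.28, interval 0.14 to 0.42), and Psmd9 had 17.3 and 14.4 CPM (log2 ratio 0.26, interval 0.13 to 0.40). Psmg1, whose product pairs with that of Psmg2, had 5.82 CPM in aged EPA and 6.56 CPM in aged control (log2 ratio -0.17, interval -0.39 to 0.05), and Psmg3 had 4.15 and 4.70 CPM (log2 ratio -0.18, interval -0.44 to 0.08). Psmd10 had 3.00 CPM in aged EPA and 3.85 CPM in aged control (log2 ratio -0.36, interval -0.66 to -0.06). Among activators, which can open the core without ubiquitin, 1 of 4 was higher, and the median log2 change was -0.07.

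**Figure D3:**
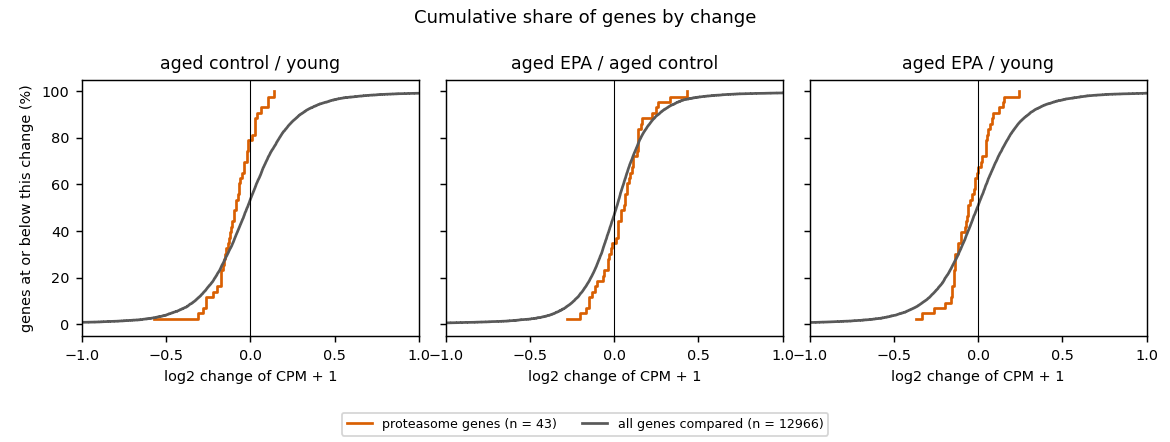
Cumulative share of genes (percent) by log2 change of CPM + 1 for the 43 members (orange) and all 12966 genes compared (grey), in the 3 comparisons. The member curves are steeper than those of all genes, and in the left panel the members reach 0 with 34 of 43 below it, beside 53.5% of all genes.

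In aged EPA against young, 28 members were lower (50.9% of all genes) and 15 higher (49.1%), with a median log2 change of -0.06 beside -0.01 for all genes. None was 1.5-fold apart (2.53% of all genes lower, 2.66% higher) or 2-fold apart (0.771% lower, 0.872% higher). By at least 25%, 2 members were lower, Psma5 and Psmg1 (9.74% of all genes), and 0 were higher (8.72%). Counting intervals lay below 0 for 18 members (27.4% of all genes) and above 0 for 9 (26.9%), again not matched for level. The rings and the base differed in this. All 7 alpha genes (6 with the GC trend subtracted) and 6 of 7 beta genes (4 with the length trend subtracted) were lower, the exception being Psmb5 at 74.9 CPM in aged EPA and 70.8 CPM in young (log2 ratio 0.08, interval 0.02 to 0.14). Of the base subunits, Psmc6 alone was lower, joined by Psmc2 and Psmd1 with the deposited CPM, by these and Psmc4 without mitochondrial and the 20 most abundant genes in the total, and by Psmd1 with the length trend subtracted. With the GC trend subtracted no base subunit was lower. Counting intervals lay above 0 for 2 of the 6 ATPase genes, Psmc3 (lower bound 8.6e-05) and Psmc5, and for 2 of the 3 other base genes, Psmd2 and Psmd4. Those of Psmc1, Psmc2, Psmc4 and Psmd1 included 0.

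The alpha ring sum was 376 CPM in aged EPA and 419.8 CPM in young (log2 ratio -0.16, interval -0.18 to -0.13), whereas the ATPase sum was 574 and 565 CPM (log2 ratio 0.02, interval 0.00 to 0.05). Psma5 had 29.98 CPM in aged EPA and 38.0 CPM in young (log2 ratio -0.34, interval -0.43 to -0.25), and Psma4 54.0 and 65.1 CPM in those libraries (log2 ratio -0.27, interval -0.34 to -0.20). For Psma5 the 3 libraries stood in the order aged EPA, aged control, young from low to high, with intervals of all 3 ratios apart from 0. With the length trend subtracted, its log2 change in aged control against young was -0.03 (-0.13 before). Psmb1, a structural beta subunit, had 103 CPM in aged EPA and 115 CPM in young (log2 ratio -0.16, interval -0.22 to -0.11). Psmb6 had 93.98 and 102 CPM in those libraries (log2 ratio -0.12, interval -0.17 to -0.07). Psmb7 had 121 and 123 CPM (log2 ratio -0.03, interval -0.08 to 0.02).

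Psmg1 had 5.82 CPM in aged EPA and 7.81 CPM in young (log2 ratio -0.42, interval -0.63 to -0.21), while Psmg2, with which its product forms a dimer, had 16.5 and 14.7 CPM (log2 ratio 0.17, interval 0.03 to 0.30). Psmf1 had the largest positive ratio, at 18.3 CPM in aged EPA and 15.3 CPM in young (log2 ratio 0.26, interval 0.12 to 0.39). Psmd2 had 181 and 163 CPM (log2 ratio 0.15, interval 0.11 to 0.19), Psmd13 45.4 and 41.6 CPM (log2 ratio 0.12, interval 0.04 to 0.21) and Psmc5 86.2 and 80.9 CPM (log2 ratio 0.09, interval 0.03 to 0.15) in aged EPA and young. Psme2, which forms the interferon-inducible cap with Psme1, had 8.81 CPM in aged EPA and 10.2 CPM in young (log2 ratio -0.22, interval -0.39 to -0.04). Its retrocopy Psme2b had 1.93 CPM in aged EPA, 2.85 in aged control and 1.73 in young, so the share of reads given to Psme2 is uncertain.

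Transcript length went with the changes of all genes, and the members are short. Their principal transcripts had a median of 1440 bases (555 to 6491), beside 2922 bases for all genes. Across all genes, which are not independent replicates, Spearman's rho between length and the log2 change was 0.29 for aged control against young, -0.22 for aged EPA against aged control and 0.12 for aged EPA against young. With that trend subtracted, the member median in aged control against young was -0.0018, and 23 of 43 members were lower in place of 34. The alpha ring median was -0.09 after subtraction and -0.15 before, with 6 of 7 genes lower after it, and the beta ring median was 0.01 after and -0.15 before, with 3 of 7 lower. In aged EPA against young all 7 alpha genes were lower after subtraction (median -0.08, and -0.14 before).

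Single members were affected unequally. Psma3, with a transcript of 2846 bases, was at -0.56 after subtraction in aged control against young and at 0.41 in aged EPA against aged control, close to its values before. Psmd4 was at -0.17 and 0.27 in those comparisons (-0.26 and 0.33 before). Psmb6 was at -0.10 and 0.07 (-0.26 and 0.14 before), and Psmb5 at -0.0018 and 0.16 (-0.15 and 0.23 before). Psma7 was at -0.17 in aged control against young (-0.31 before). Split by length, the 22 members under 1500 bases had a median log2 change of -0.11 in aged control against young, beside -0.14 for all 2475 genes of that length. The 21 longer members had a median of -0.04, beside 0.01 for 10491 genes. In aged EPA against aged control the shorter members had a median of 0.02 and the longer 0.07, beside 0.07 and 0.0016 for all genes. Spearman's rho with length was 0.12 over the members there, the opposite sign to the -0.22 over all genes. In aged EPA against young the member medians were -0.11 and -0.005, beside -0.07 and 0.009 for all genes. The bound of 1500 bases was chosen after the values were seen. The part of length in the members' values was not tested beyond this.

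**Figure D4:**
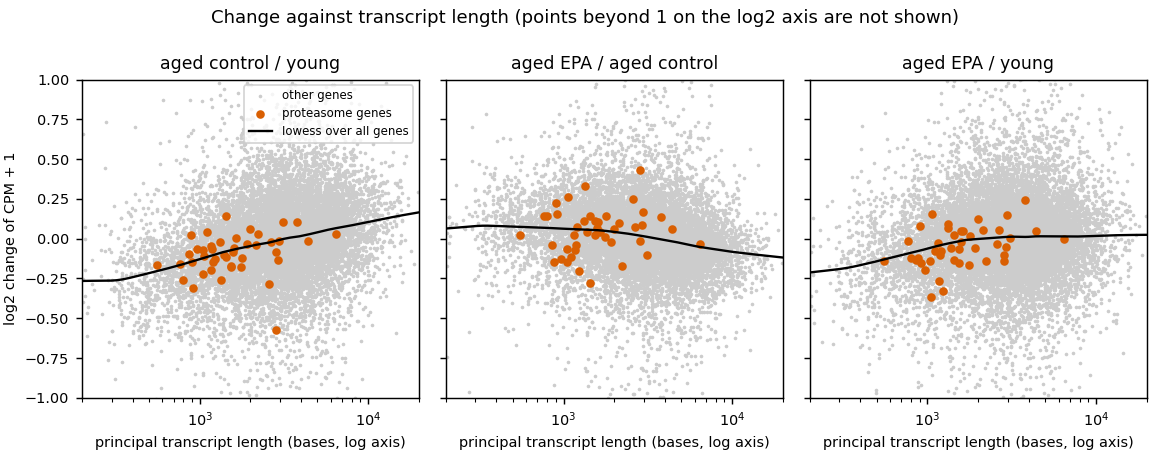
Log2 change of CPM + 1 against principal transcript length (bases, log axis) for the 43 members (orange) and the other compared genes (grey), with the lowess trend over all genes (black), in the 3 comparisons. Short genes lie lower in aged control than in young (rho 0.29) and higher in aged EPA than in aged control (rho -0.22), most members lie near the trend, and Psma3 lies far below it in the left panel and above it in the middle panel.

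Other genes of the pathway were taken from lists of immunoproteasome subunits, proteasome-bound proteins, transcriptional regulators, ubiquitin shuttles and ubiquitin genes, of which 31 of 32 were compared. In aged control against young, 14 were lower and 17 higher, beside 53.5% and 46.4% of all genes, with a median log2 change of 0.04. In aged EPA against aged control, 13 were lower and 18 higher, beside 47.0% and 53.0% of all genes (median 0.05). In aged EPA against young, 11 were lower and 20 higher, beside 50.9% and 49.1% (median 0.07). In each comparison 1 gene was 1.5-fold apart. This was Nfe2l1, lower in aged control than in young (2.64% of all genes) and higher in aged EPA against aged control (1.83%). For aged EPA against young it was Psmb9, which was higher (2.66%).

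Nfe2l1 (chromosome 11, 96817414 to 96829968) encodes NRF1, a membrane-bound factor that is released to the nucleus when proteasome capacity falls short. It stood at 281 CPM in aged EPA, 115 CPM in aged control and 389 CPM in young, from 15736, 6654 and 22348 counts. The aged control library was the low one by a wide margin. The log2 ratio was -1.75 for aged control over young (interval -1.79 to -1.71), 1.28 for aged EPA over aged control (interval 1.24 to 1.33) and -0.47 for aged EPA over young (interval -0.50 to -0.44). The members differed far less in the same libraries, with sums of 3331 CPM in aged EPA, 3193 CPM in aged control and 3397 CPM in young. Any relation between Nfe2l1 RNA and the members was not tested. Nfe2l1 shares no exonic bases with another annotated gene, and its log2 change stayed between -1.78 and -1.71 in aged control against young and between 1.21 and 1.298 in aged EPA against aged control under every alternative run. Nfe2l2, which encodes the related factor NRF2, had 69.5 CPM in aged EPA, 66.0 in aged control and 58.9 in young.

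Immunoproteasome subunits replace the catalytic beta subunits under interferon and were low in all 3 libraries. Psmb8 had 5.82 CPM in aged EPA, 5.61 in aged control and 5.40 in young. Psmb10 had 10.2, 8.95 and 8.68 CPM in those libraries. Psmb9 had 3.29 CPM in aged EPA, 2.67 in aged control and 1.74 in young, with a log2 ratio of 0.92 for aged EPA over young (interval 0.56 to 1.28) and 0.62 for aged control over young (interval 0.24 to 0.99). Psmb9 shares 212 exonic bases with Tap1 on the opposite strand, and Tap1, a peptide transporter gene, had 4.65, 3.70 and 4.06 CPM in aged EPA, aged control and young. The 6 listed interferon response genes summed to 49.4, 49.2 and 47.2 CPM.

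Pomp, which guides assembly of the beta ring, had 51.9 CPM in aged EPA, 52.6 in aged control and 49.2 in young, a difference of at most 0.10 on the log2 ratio scale. Adrm1, chosen here after its values were seen, encodes the ubiquitin receptor that docks on the product of Psmd1. It had 99.4 CPM in aged EPA, 72.9 in aged control and 71.8 in young, so that aged EPA was the high library (log2 ratio 0.45 over aged control, interval 0.39 to 0.51, and 0.47 over young, interval 0.41 to 0.53). The receptor gene of the base among the members, Psmd4, had its low library in aged control instead.

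**Figure D5:**
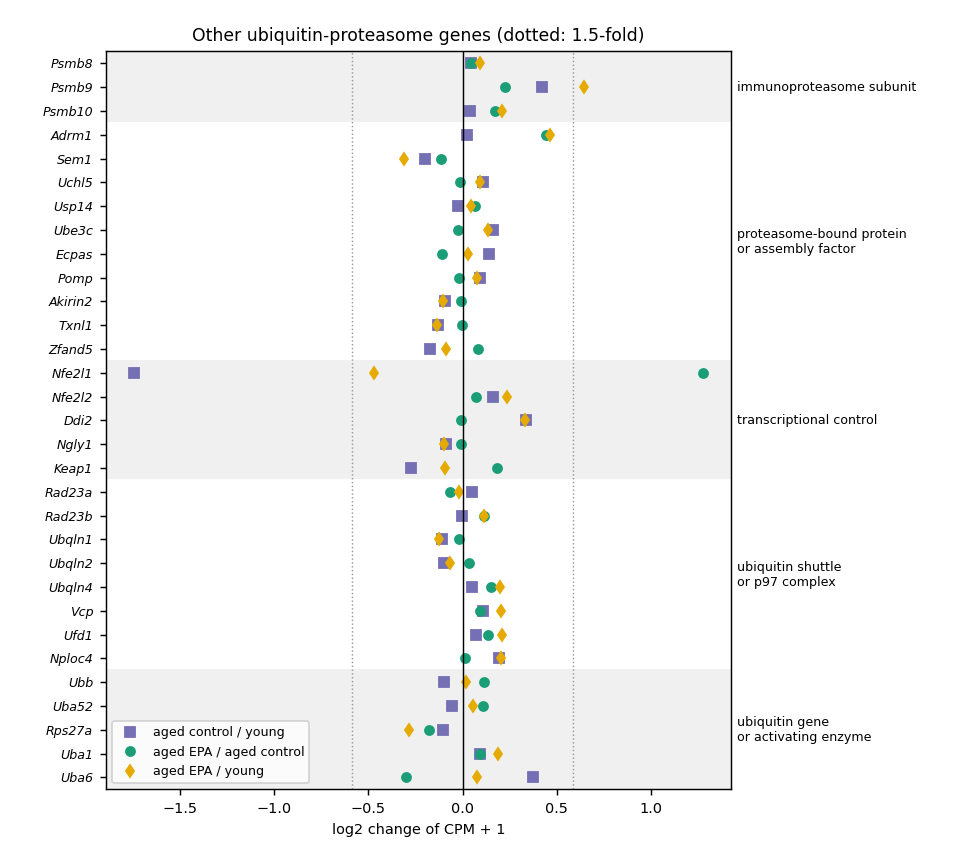
Log2 change of CPM + 1 for 31 other ubiquitin-proteasome genes in aged control over young (purple squares), aged EPA over aged control (green circles) and aged EPA over young (yellow diamonds), grouped by list, with dotted lines at 1.5-fold. Nfe2l1 stands apart at -1.75, 1.28 and -0.47, Psmb9 passes the line in aged EPA over young at 0.64, and all other symbols lie between the lines.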

How the data were processed

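Total RNA of muscle pooled per group was sequenced, 1 library per group. Per the submitters' processing notes, HISAT2 2.1.0, StringTie 1.3.4d and R 3.5.0 were used with GRCm38 (mm10); their roles, the annotation and the strandedness of counting are not given in the sources used here. The authors deposited CPM per gene, with no counts. Every deposited CPM value was a whole count over 1 of 5 divisors (56034275 to 57687235), which differed between genes. Counts were therefore recovered and divided by each library's own total. Deposited values differed from the result by -2.98% to -0.12% in aged EPA, -0.11% to 2.84% in aged control and -0.52% to 2.41% in young. Results with the deposited CPM carry these differences. Rows sharing a symbol were summed.

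Genes with a mean of at least 1 deposited CPM were compared. Change is the log2 ratio of CPM + 1 and count ratio the log2 ratio of counts per library total, with an exact Clopper-Pearson 95% interval conditional on the sum of counts. Intervals and the floor of 3 counts cover counting error only. No test was possible, so thresholds of fold and counts of genes describe 3 libraries. Lengths and GC content came from GENCODE M21 principal transcripts, and trends were lowess fits (fraction 0.3; statsmodels 0.14.6, scipy 1.17.1). Recovery of counts, the counting intervals and TMM scaling were run on simulated counts. The simulation held counting error only, so it does not bear on spread between mice or preparations, or on the length and GC trends. Alternatives were the deposited CPM, pseudocounts of 0.1 and 5, no filter, a mean of at least 5 CPM, median-of-ratios and TMM scaling, a total without mitochondrial and the 20 most abundant genes, length or GC trends subtracted, other folds, and the highest row of a repeated symbol. Those of the list genes were added after the data were seen.

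Members, lists, roles and thresholds were chosen with earlier results of these data known. Every member is named with a level. Chosen for full values were Psmb5, Psmb6, Psmb7 and the 5 largest differences per direction and comparison. Of the other lists, Psmb8, Psmb9, Psmb10, Nfe2l1, Nfe2l2, Pomp and genes at least 1.5-fold apart were chosen. Some of these, such as Psme1, Psmb8, Psmb10, Nfe2l2 and Pomp, are given with levels or ratios but no interval. Of the listed ubiquitin-proteasome genes, 1 is not reported here and was left out of the list counts.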

Additional observations from a re-analysis of the deposited data

How the results depend on the processing

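No paired analysis was possible because each group is 1 library, and for the same reason no library could be left out in turn. At 1.5-fold, 0 members were apart in aged control against young, but 1 (Psma3, near the bound) with the deposited CPM, with a pseudocount of 0.1 and without mitochondrial and the 20 most abundant genes. At a 25% difference the counts were 1 in aged control against young, 2 in aged EPA against aged control and 2 in aged EPA against young. The member median in aged control against young was -0.09, and -0.0018 with the length trend subtracted; the cause was not tested. Of 105 summary values run under alternatives, the other 98 stayed within 1.5 times the count or within counting error of the median, and 476 of 495 values of named genes stayed within counting error. Genes chosen for full values were judged in the comparisons for which they were chosen. There, only Psmb7 and Psmb8 changed sign under an alternative run, both from values whose counting interval includes 0. In other comparisons more of these genes changed sign. Psmc6 in aged EPA against young was at -0.14 (counting interval -0.21 to -0.08) and at 0.0072 with the GC trend subtracted.

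The number of members lower in aged control than in young lay between 23 (length trend) and 35, with 31 under TMM and 32 with the deposited CPM. In aged EPA against aged control 15 to 20 of 43 were lower (13 of the 40 members with a mean of at least 5 CPM), and in aged EPA against young 25 to 31. Psmb7 in aged EPA against aged control was at -0.05 with the deposited CPM and at -0.04 with the length trend subtracted, where the value given is 0.02. Psmd10, Psmg3 and Psmg4 had few counts: the intervals of Psmg3 and Psmg4 included 0 in all 3 comparisons and those of Psmd10 in 2.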

Other observations

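Copies of members were sought only by symbol, as a member-type name ending in b or in -ps with or without digits. Copies under other names were not looked for. Of those found, Psme2b had 108 counts in aged EPA, 164 in aged control and 99 in young. Psmb7-ps2 had 1 count in aged EPA, 3 in aged control and 0 in young, and Psmb5-ps, Psmb6-ps and Psmb6-ps2 had 0 in each library. In all, 11 of the 43 members share exonic bases with another annotated gene, 3 of them with a gene on the same strand. The ubiquitin gene Ubb had 734 CPM in aged EPA, 678 in aged control and 726 in young. Ddi2, which encodes the protease that releases NRF1 from the membrane, had 66.6 CPM in aged EPA, 67.0 in aged control and 52.7 in young, and Vcp, the unfoldase that draws proteins from membranes, had 377, 353 and 327 CPM. Ubb, Ddi2 and Vcp were chosen after their values were seen.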
